A study of Mus musculus with 12 samples.

Results

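The transcripts described here belong to 9 mouse genes that encode the enzymes of glycogen synthesis and breakdown and the targeting subunits that tether protein phosphatase 1 to the glycogen particle. They are the targeting subunit genes Ppp1r3c, Ppp1r3b and Ppp1r3d, the synthase gene Gys1, the glycogenin gene Gyg1 (annotated on the array as Gyg), the branching enzyme gene Gbe1, the UDP-glucose pyrophosphorylase gene Ugp2, and the phosphorylase genes Pygl and Pygb. The members were named as genes of this pathway, with earlier results of these data known. All probe sets that the Mouse430_2 annotation gives to these symbols were taken, whatever their values. This gave 16 probe sets of 45101 on the array, for 9 of the 18193 genes that a probe set with a single symbol represents. Of the 16, 15 had a mean signal of at least 100 over the 12 arrays and were tested, and each gene is led below by its brightest probe set.

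RNA was taken from 6 lines of primary fibroblasts from mouse embryos at e14.5, 1 Affymetrix array per culture. All lines, controls included, had been infected at passage 3 with an adenovirus that expresses Cre recombinase and then grown at least 100-fold. Each line was kept subconfluent for 6 h at 21% O2 (normoxia) or 0.1% O2 (hypoxia), in medium brought to that oxygen beforehand, with 5% CO2 at 37 C. The 3 control lines carried 1 floxed allele of a transcriptional coactivator gene: Ep300, which encodes p300, in flox2_1 and flox2_2, and Crebbp, which encodes CBP, in flox1. The 3 triCH1 lines lacked the CH1 domain, to which the hypoxia-inducible factor HIF-1 binds, in 3 of the 4 alleles of these genes. The last allele was a floxed one, of Ep300 in triCH1flox2_1 and triCH1flox2_2 and of Crebbp in triCH1flox1. Cre acts on floxed alleles, and how far it had deleted them in control and triCH1 lines was not tested here. The 4 groups thus held 3 arrays each, and each line name marks 1 normoxia and 1 hypoxia array. The labels do not say whether each line came from a separate embryo, so p-values measure the spread between these lines. The floxed gene is not the same in all lines of a type, and only 1 line of each type had a floxed Crebbp allele.

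Glycogen is a branched store of glucose. Glucose 1-phosphate is turned into UDP-glucose, glycogenin builds the primer, glycogen synthase lengthens the chains and the branching enzyme adds branch points, while glycogen phosphorylase shortens the chains and releases glucose 1-phosphate. The targeting subunits hold protein phosphatase 1 at the glycogen particle, where it activates the synthase and inactivates the phosphorylase. Cultured cells are known to lay down glycogen in low oxygen, and HIF-1 is known to act on genes of this pathway.

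The promoter windows of members that responded to hypoxia are shown because HIF-1 recognises the core sequences ACGTG and GCGTG, and the CH1 domain is a contact of that factor. Each line gives the 250 bases before the annotated start of the gene, 5′ to 3′ on the strand of the gene, from RefSeq's table on GRCm38.p6. Capitals mark every match to ACGTG or GCGTG, searched on both strands. The palindrome CACGTG holds the former core on both strands at once and was counted as 2 overlapping matches. The windows lie at chr19:36736605-36736854 (minus strand) for Ppp1r3c, chr12:70227684-70227933 (minus strand) for Pygl and chr7:45434589-45434838 (plus strand) for Gys1.
Ppp1r3c: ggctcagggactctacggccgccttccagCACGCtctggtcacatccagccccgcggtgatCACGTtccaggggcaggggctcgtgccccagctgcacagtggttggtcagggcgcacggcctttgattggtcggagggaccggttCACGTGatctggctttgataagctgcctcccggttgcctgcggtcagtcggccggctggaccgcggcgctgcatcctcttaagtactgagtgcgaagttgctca
Pygl: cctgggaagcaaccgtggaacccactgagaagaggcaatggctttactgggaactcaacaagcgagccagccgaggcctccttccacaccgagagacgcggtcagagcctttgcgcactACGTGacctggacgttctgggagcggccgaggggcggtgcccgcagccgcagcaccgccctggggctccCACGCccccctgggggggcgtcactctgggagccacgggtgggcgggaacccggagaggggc
Gys1: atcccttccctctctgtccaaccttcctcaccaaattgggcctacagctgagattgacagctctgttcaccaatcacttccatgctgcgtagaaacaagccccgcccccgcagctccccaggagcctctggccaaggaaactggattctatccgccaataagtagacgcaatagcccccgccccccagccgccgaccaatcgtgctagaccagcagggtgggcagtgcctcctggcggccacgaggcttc
The Ppp1r3c window held 4 matches, counted by the base farthest from the start: GCGTG at 221 bases, ACGTG at 189 bases, and the overlapping pair in CACGTG at 104 and 103 bases before the start. Pygl held ACGTG at 131 bases and GCGTG at 62 bases before the start, and Gys1 held no match in this window. Of 32851 promoter windows of the same length, 16.6% held ACGTG, 28.2% GCGTG, 38.6% at least 1 of them and 6.02% CACGTG. Of the 9 members 8 were in the table, and Ppp1r3b was not. Among members whose response did not pass the test, Ppp1r3d held 3 matches, Pygb 2 and Gyg1 1. Gbe1 held none, and 1 of the listed Ugp2 windows held 6 and the other 0. A match is a description of these letters and shows no binding, and no match says nothing of other parts of a gene.

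Over the 12 arrays the authors' scale factors lay between 2.57 and 4.28 and the median signals between 57.2 and 76.1. All 12 markers of fibroblasts had a mean signal of at least 100, although Pdgfra (14.7 to 774.8) and Dcn (12.1 to 856.2) varied widely between arrays, and none of the 6 measured hepatocyte markers and none of the 4 endothelial markers reached it. Of 8 skeletal muscle markers 2 did (Acta1 and Des, but not Myod1 or Myog), of 6 macrophage markers 3 (but neither Ptprc nor Itgam), of 5 neural markers 4 and of 4 cartilage markers 3. Of the 5 epithelial markers 3 reached it (Krt19, Krt18 and Epcam). Krt19 (1417156_at) moved with oxygen, by 2.10 ± 0.24 in control and 1.27 ± 0.24 in triCH1 lines (log2, SE, adjusted p = 0.000191 and 0.0227). The summed signal of the 5 was 1324 to 2289 in control normoxia, 5912 to 7596 in control hypoxia, 1335 to 2468 in triCH1 normoxia and 3683 to 3867 in triCH1 hypoxia. Without Krt19 the other 4 summed to 356 to 479, 316 to 351, 345 to 880 and 224 to 663 in the same groups. Its part in the results below was not tested. The summed cartilage markers were 864 to 3282 in the control arrays and 393 to 765 in the triCH1 arrays. Those of skeletal muscle were 12324 to 18455 and 8076 to 13919 in control and triCH1 normoxia. In hypoxia they were 15540 to 17505 and 10345 to 13790, without overlap. Of single tested probe sets 6.05% lay lower in triCH1 hypoxia without overlap. The muscle sum was mostly Acta1, whose mean over 12 arrays was 13575.9, against 314.5 for Des. The part of either list in differences between line types was not tested.

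The targeting subunit genes Ppp1r3c and Ppp1r3b gave the highest responses of the 9 genes. Signals of single arrays are given below in the order flox2_1, flox2_2, flox1 for control lines and triCH1flox2_1, triCH1flox2_2, triCH1flox1 for triCH1 lines. Ppp1r3c (1433691_at; Entrez gene 53412, chr19:36731731-36736604 on GRCm38.p6) encodes the subunit also called protein targeting to glycogen. In normoxia its signal was 10.6 in flox2_1, 13.3 in flox2_2 and 26.2 in flox1, and in hypoxia it was 536.3, 345.6 and 436.7 in the same lines. In the triCH1 lines it was 27.3 in triCH1flox2_1, 9.9 in triCH1flox2_2 and 2.7 in triCH1flox1 in normoxia, and 227.4, 144.3 and 93.0 in hypoxia. All 6 hypoxia arrays lay above all 6 normoxia arrays, as they did for 1.43% of the tested probe sets, and every control hypoxia array lay above every triCH1 hypoxia array. The group means were 16.7 ± 8.34 and 439.5 ± 95.4 in control lines and 13.3 ± 12.6 and 154.9 ± 67.8 in triCH1 lines (SD, n = 3 each). Ppp1r3c rose by 3.65 ± 0.39 in control lines (SE, adjusted p = 9.78e-05) and by 2.39 ± 0.39 in triCH1 lines (adjusted p = 0.00647), tested by limma on log2(signal + 20) and adjusted by Benjamini-Hochberg over 18903 probe sets. The size rests on normoxia signals so low that the added 20 outweighs most of them. On the scale used the folds were 12.5 and 5.23, whereas the ratios of the mean signals were 26.3 and 11.6. With 1 and 100 in place of 20 the control response was 4.71 and 2.20, and that of the triCH1 lines 3.81 and 1.14. The call in triCH1 lines was lost without the hypoxia array of triCH1flox2_1 (2.10, adjusted p = 0.06) and without line triCH1flox2_2 (2.35, adjusted p = 0.128). In RNA of whole cultures, fewer cells of a type and less RNA per cell cannot be told apart.

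The second probe set of Ppp1r3c, 1425631_at, had a mean signal of 61.6 and was not tested. In control lines it gave 23.8, 10.2 and 8.8 in normoxia and 158.4, 143.3 and 161.9 in hypoxia. The triCH1 lines gave 3.3, 7.7 and 34.1 in normoxia and 23.6, 105.3 and 59.0 in hypoxia. Every line was higher in hypoxia by this probe set too, and the control hypoxia arrays again lay above those of the triCH1 lines. The responses per line by this probe set overlapped between the line types.

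Ppp1r3b (1436590_at; Entrez gene 244416, chr8:35375694-35388139), best known as the targeting subunit of liver, was measured here in cells whose measured hepatocyte markers all had mean signals under 100. Its signal in control lines was 94.1, 111.8 and 104.4 in normoxia and 950.6, 742.9 and 830.1 in hypoxia. That in triCH1 lines was 67.0, 28.4 and 86.4 in normoxia and 448.8, 484.6 and 585.5 in hypoxia. The triCH1 arrays lay below the control arrays in both conditions, and the hypoxia arrays of all lines lay above every normoxia array. Means were 103.4 ± 8.89 and 841.2 ± 104.3 in control lines and 60.6 ± 29.5 and 506.3 ± 70.9 in triCH1 lines. Ppp1r3b rose by 2.80 ± 0.27 (adjusted p = 3.94e-05) in control and by 2.77 ± 0.27 (adjusted p = 8.3e-05) in triCH1 lines, and the ratios of the means were 8.13 and 8.35. This gene kept its call under every array or line left out.

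Ppp1r3d (1452922_at; Entrez gene 228966, chr2:178411206-178414463), a targeting subunit found in many tissues, gave 113.3, 211.1 and 146.2 in control normoxia and 190.6, 143.7 and 177.6 in hypoxia. Signals of the triCH1 lines were 94.3, 140.1 and 117.3 in normoxia and 91.2, 175.1 and 154.9 in hypoxia. The groups overlapped and the lines differed in sign. Its log2 changes were 0.14 ± 0.30 in control and 0.20 ± 0.30 in triCH1 lines (adjusted p = 1 and 0.973).

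**Figure D1:**
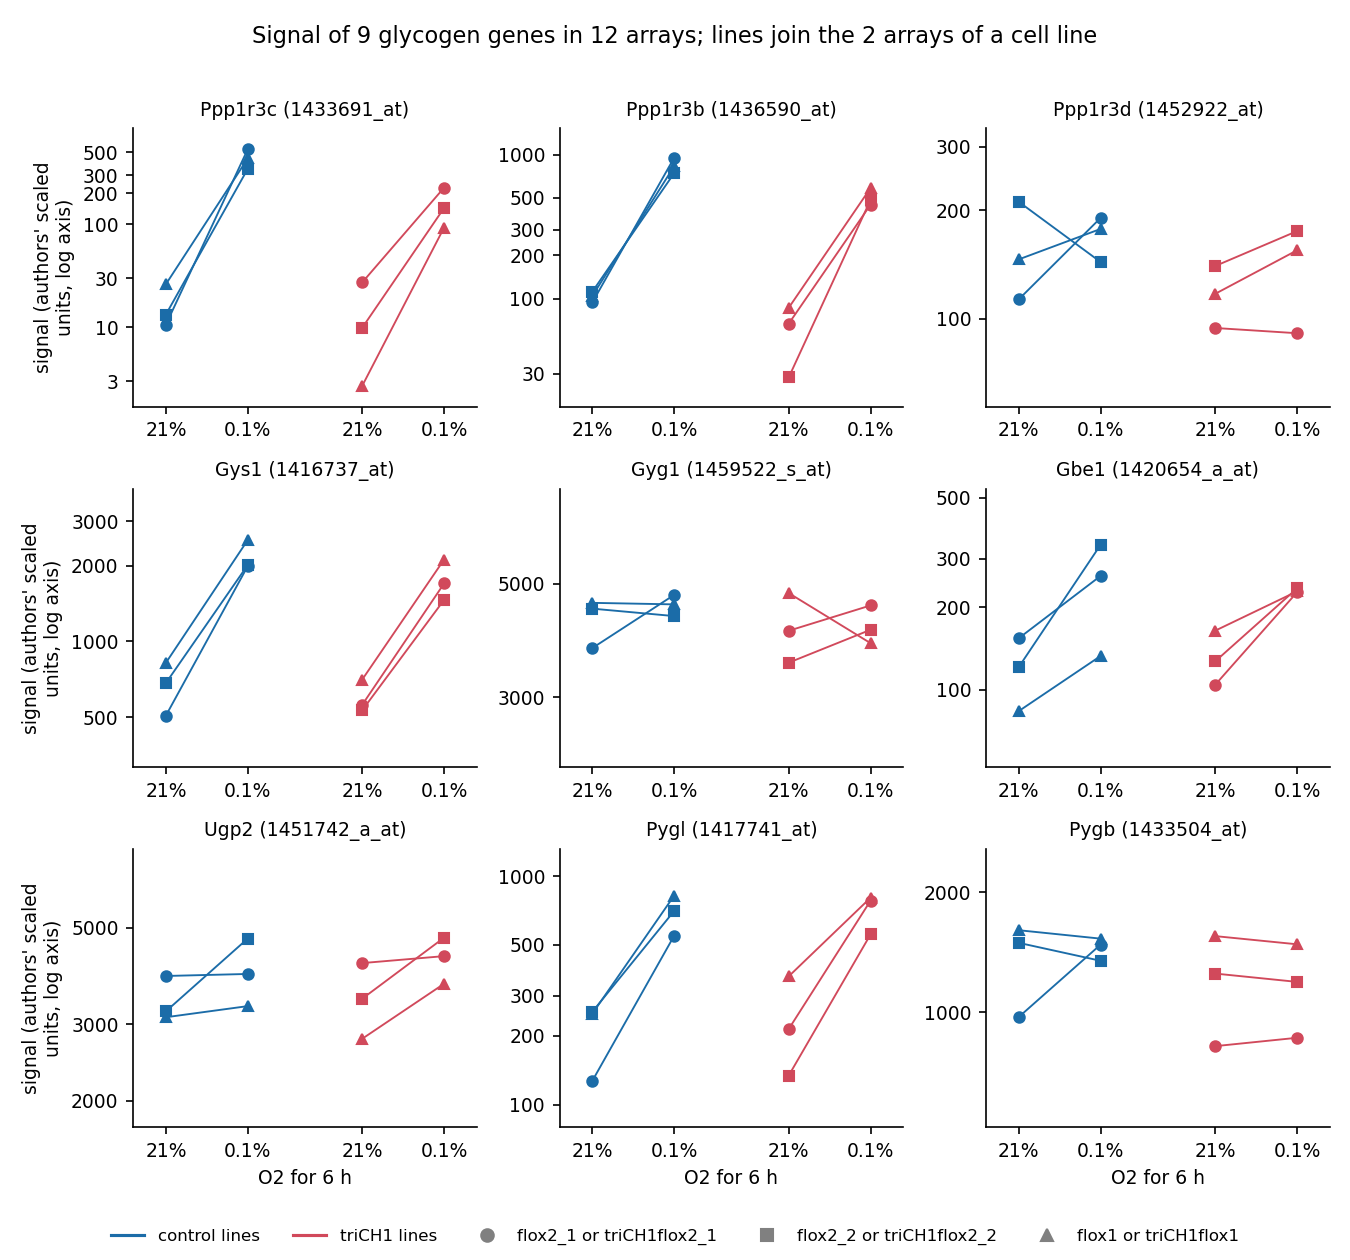
Signal of the leading probe set of each of the 9 genes on a log axis, in the authors' scaled units, at 21% and 0.1% O2 in control (blue) and triCH1 (red) lines, with a line joining the arrays of 1 cell line. Ppp1r3c, Ppp1r3b, Gys1 and Pygl lie higher at 0.1% O2 in all 6 lines without overlap, while Ppp1r3d, Gyg1 and Pygb show no common direction.

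Among the genes of synthesis, Gys1 rose in both line types. Gys1 (1416737_at; Entrez gene 14936, chr7:45434839-45456617) encodes the glycogen synthase of muscle and most other tissues. Its signal in control lines was 508.1, 684.2 and 823.0 in normoxia and 1989.2, 2009.8 and 2523.5 in hypoxia. In triCH1 lines it was 561.3, 534.0 and 706.6 in normoxia and 1698.1, 1461.9 and 2112.8 in hypoxia. The normoxia and hypoxia arrays were far apart in both line types, and the control and triCH1 arrays of a condition overlapped. The means were 671.8 ± 157.8 and 2174.2 ± 302.7 in control lines and 600.6 ± 92.8 and 1757.6 ± 329.5 in triCH1 lines. The response was 1.68 ± 0.21 in control (3.21-fold, adjusted p = 0.000412) and 1.51 ± 0.21 in triCH1 lines (2.85-fold, adjusted p = 0.0016). A further probe set of Gys1, 1450196_s_at, whose suffix marks probes that can match more than 1 transcript, rose by 1.24 ± 0.21 and 1.06 ± 0.21 (adjusted p = 0.00788 and 0.0357). Its group means were 421.5 ± 70.7 and 1025.7 ± 195.2 in control lines and 415 ± 26.6 and 902.6 ± 233.5 in triCH1 lines.

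Gyg1 (1459522_s_at; Entrez gene 27357, chr3:20122083-20155117), the protein primer on which glycogen is built, was measured in hypoxia at close to its normoxia signal. The suffix of this probe set carries the same limit as that of the further Gys1 probe set. Control lines gave 3743.4, 4469.3 and 4587.5 in normoxia and 4754.6, 4322.5 and 4556.1 in hypoxia. For triCH1 lines the signals were 4046.2, 3505.1 and 4793.8 in normoxia and 4534.2, 4064.0 and 3826.4 in hypoxia. All 4 groups overlapped, with log2 changes of 0.10 ± 0.14 and 0.02 ± 0.14 in control and triCH1 lines. The interval of the control response, -0.22 to 0.41 (95%), leaves out changes as large as those of the called members. The second probe set, 1448429_at, had group means between 1762 and 1864.8 and log2 changes of 0.09 ± 0.15 and 0.02 ± 0.15.

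Gbe1 (1420654_a_at; Entrez gene 74185, chr16:70313949-70569720), the branching enzyme, was higher in hypoxia in every line but varied widely among control lines. Its signal was 154.0, 121.0 and 83.6 in control normoxia and 259.7, 337.3 and 132.7 in hypoxia. It was 104.2, 126.8 and 164.0 in triCH1 normoxia and 226.3, 233.8 and 228.0 in triCH1 hypoxia. The control groups overlapped because flox1 in hypoxia lay below flox2_1 in normoxia. The triCH1 groups did not overlap, as for 5.64% of tested probe sets in this direction. The log2 changes of 0.86 ± 0.32 and 0.74 ± 0.32 did not pass in either line type (adjusted p = 0.559 and 0.757). Over all 6 lines Gbe1 had 0.80 ± 0.22 (adjusted p = 0.116), and with each line as a block, which compares the arrays of a line with each other, it passed (adjusted p = 0.0256). It also passed without the hypoxia array of flox1 (0.97, adjusted p = 0.0242).

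Ugp2 (1451742_a_at; Entrez gene 216558, chr11:21321126-21371267), which makes UDP-glucose, gave 3876.2, 3214.1 and 3115.2 in control normoxia and 3917.9, 4725.8 and 3304.0 in hypoxia. From triCH1 lines came 4150.3, 3437.1 and 2779.9 in normoxia and 4306.1, 4748.8 and 3720.0 in hypoxia. Each line was higher in hypoxia, and the normoxia and hypoxia groups overlapped within each line type. The log2 changes were 0.22 ± 0.18 and 0.31 ± 0.18 (adjusted p = 1 and 0.879). Over all 6 lines the 5 probe sets of Ugp2 had changes between 0.26 and 0.52, of which none passed (adjusted p from 0.211 to 0.469). Of the 5, 1434486_x_at was also higher in all 6 lines, and the other 3 were not.

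**Figure D2:**
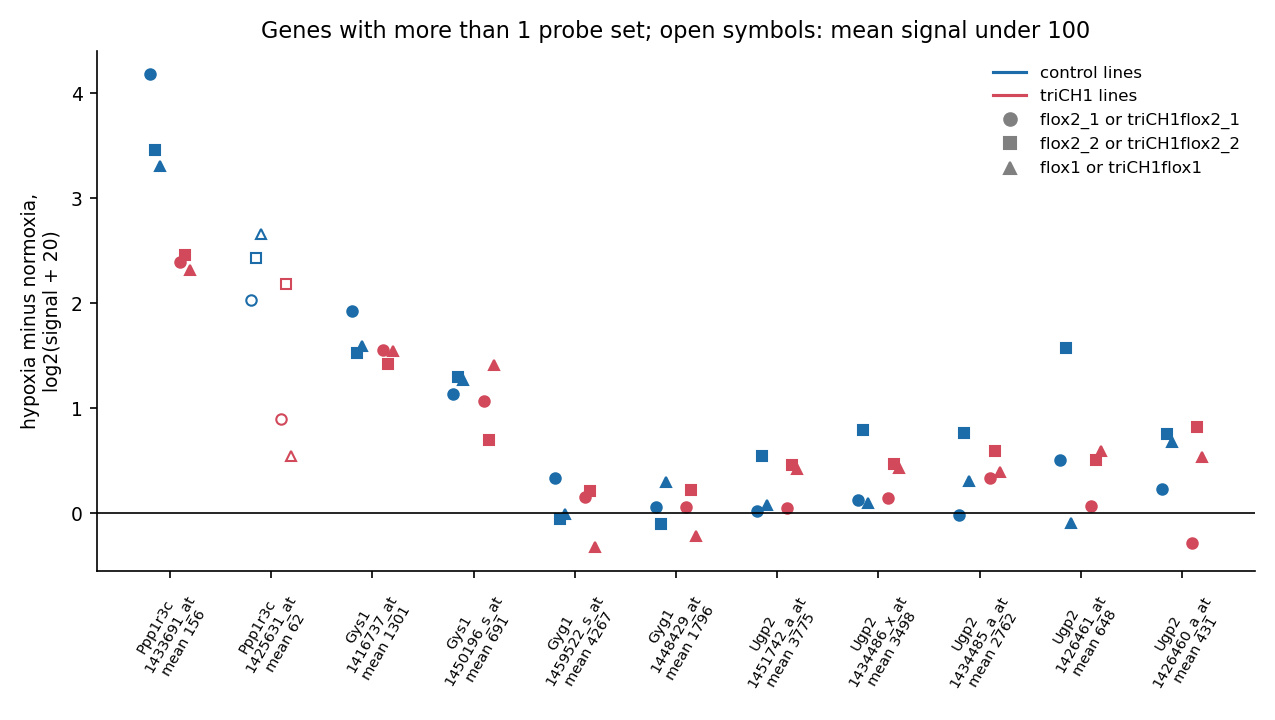
Hypoxia minus normoxia on the log2(signal + 20) scale for each line, for the 4 genes with more than 1 probe set, with the mean signal over 12 arrays under each name and open symbols where that mean is under 100. Both Ppp1r3c and both Gys1 probe sets lie above 0 in all 6 lines, those of Gyg1 scatter around 0, and the 5 of Ugp2 lie mostly between 0 and 1.

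The phosphorylase genes Pygl and Pygb differed in their values. Pygl (1417741_at; Entrez gene 110095, chr12:70190815-70227683) encodes the phosphorylase best known from liver. Its signal was 127.1, 254.8 and 250.1 in control normoxia and 548.2, 703.9 and 821.3 in hypoxia. With the CH1 deletions it was 214.1, 134.0 and 364.1 in normoxia and 780.4, 555.5 and 803.9 in hypoxia. All hypoxia arrays lay above all normoxia arrays, and control and triCH1 lines overlapped in both conditions. The means were 210.7 ± 72.4 and 691.1 ± 137 in control and 237.4 ± 116.8 and 713.3 ± 137.1 in triCH1 lines. Pygl rose by 1.66 ± 0.33 in control (3.16-fold, adjusted p = 0.0257) and by 1.59 ± 0.33 in triCH1 lines (3.01-fold, adjusted p = 0.0449). Over all 6 lines the response was 1.63 ± 0.23 (adjusted p = 0.00112), and this call held under each of the 18 omissions of an array or a line, with adjusted p up to 0.011.

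With each line as a block, Pygl passed in control and triCH1 lines (limma, adjusted p = 0.000305 and 0.000669). Without the block its calls within a line type were less firm, although its change stayed between 1.27 and 1.93 under every omission. The control call was lost without the normoxia array of flox2_1 (1.37, adjusted p = 0.125), without the hypoxia arrays of flox2_1 (0.0509), flox2_2 (0.113) or flox1 (0.139), and without lines flox2_1 (0.167), flox2_2 (0.165), flox1 (0.227) or triCH1flox2_1 (0.0527). The triCH1 call was lost in 14 of 18 omissions. Among arrays of the triCH1 lines these were the normoxia arrays of triCH1flox2_1 (adjusted p = 0.147) and triCH1flox2_2 (1.27, 0.231) and the hypoxia arrays of triCH1flox2_1 (0.193), triCH1flox2_2 (0.0747) and triCH1flox1 (0.197). Among arrays of the control lines they were the normoxia arrays of flox2_2 (0.0583) and flox1 (0.0585) and the hypoxia arrays of flox2_1 (0.063), flox2_2 (0.0711) and flox1 (0.0612). Among lines they were flox2_2 (0.0932), flox1 (0.0853), triCH1flox2_1 (0.452) and triCH1flox2_2 (0.273).

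Pygb (1433504_at; Entrez gene 110078, chr2:150786796-150831748), the phosphorylase best known from brain, gave 973.0, 1493.3 and 1606.4 in control normoxia and 1478.7, 1346.1 and 1530.1 in hypoxia. Values in triCH1 lines were 821.8, 1250.3 and 1552.7 in normoxia and 862.5, 1191.6 and 1481.0 in hypoxia. The groups overlapped, and the arrays of flox2_1 in normoxia and of triCH1flox2_1 in both conditions were the lowest. The log2 changes were 0.13 ± 0.26 and -0.02 ± 0.26 (adjusted p = 1 and 0.997).

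In the control lines 4 of the 9 genes rose and 0 fell, by 5 of 15 tested probe sets, where limma called 0.799% of all 18903 tested probe sets higher and 0.0317% lower. In the triCH1 lines 4 of 9 rose, again by 5 of 15 probe sets, against 0.63% of all tested called higher and 0.00529% lower. In both line types the called genes were Ppp1r3c, Ppp1r3b, Gys1 and Pygl. These 4 of 9 were also called in the mean response over all 6 lines, where 1.42% of all tested were called higher, and 5 of 9 with each line as a block, against 2.41% of all tested. Ppp1r3c and Ppp1r3b were tested only because their hypoxia arrays lifted their means over 100, with normoxia means of 15 and 82 over 6 arrays. The members were also chosen with earlier results of these data known. The counts and medians here are thus a description and no support. The median change of the 9 leading probe sets was 0.86 in control and 0.74 in triCH1 lines, where that of all tested probe sets was -0.04 and -0.02. The control change was above 0 for 9 of 9 genes and the triCH1 change for 8 of 9, against 43.1% and 46.8% of all tested.

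Taken line by line, Ppp1r3c was higher in hypoxia by 4.18 in flox2_1, 3.46 in flox2_2 and 3.31 in flox1, and by 2.39, 2.46 and 2.32 in triCH1flox2_1, triCH1flox2_2 and triCH1flox1. On this scale the lowest control line lay above the highest triCH1 line, as for 2.67% of tested probe sets in this direction. The separation depended on the added 20, since the normoxia signals were 2.7 to 27.3. With 1 in its place, added after the data were seen, the responses were 5.53, 4.6 and 4.01 in control and 3.01, 3.74 and 4.67 in triCH1 lines, and the line types overlapped. With 100 they were 2.52, 1.98 and 2.09 against 1.36, 1.15 and 0.91, without overlap. The second probe set of Ppp1r3c, with 20 added, gave 2.03, 2.43 and 2.66 in control and 0.9, 2.18 and 0.55 in triCH1 lines. By that probe set the line types overlapped. Ppp1r3b had 3.09, 2.53 and 2.77 in control and 2.43, 3.38 and 2.51 in triCH1 lines, and the line types overlapped. Gys1 had 1.93, 1.53 and 1.59 against 1.56, 1.42 and 1.55, and Pygl 1.95, 1.40 and 1.64 against 1.77, 1.90 and 1.10. Of the 6 lines flox2_1 had the highest response of Ppp1r3c, Gys1 and Pygl, and of the uncalled Ppp1r3d, Gyg1 and Pygb. This was not so for Ppp1r3b, Gbe1 and Ugp2. By its second probe set Gys1 was highest in triCH1flox1 (1.41, against 1.14 in flox2_1). Ppp1r3c (2.66, against 2.03) and Gyg1 (0.3, against 0.06) were by theirs highest in flox1. The response was above 0 in all 6 lines for 6 of the 9 leading probe sets, those of the 4 called genes, Gbe1 and Ugp2, against 5.14% of all tested.

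**Figure D3:**
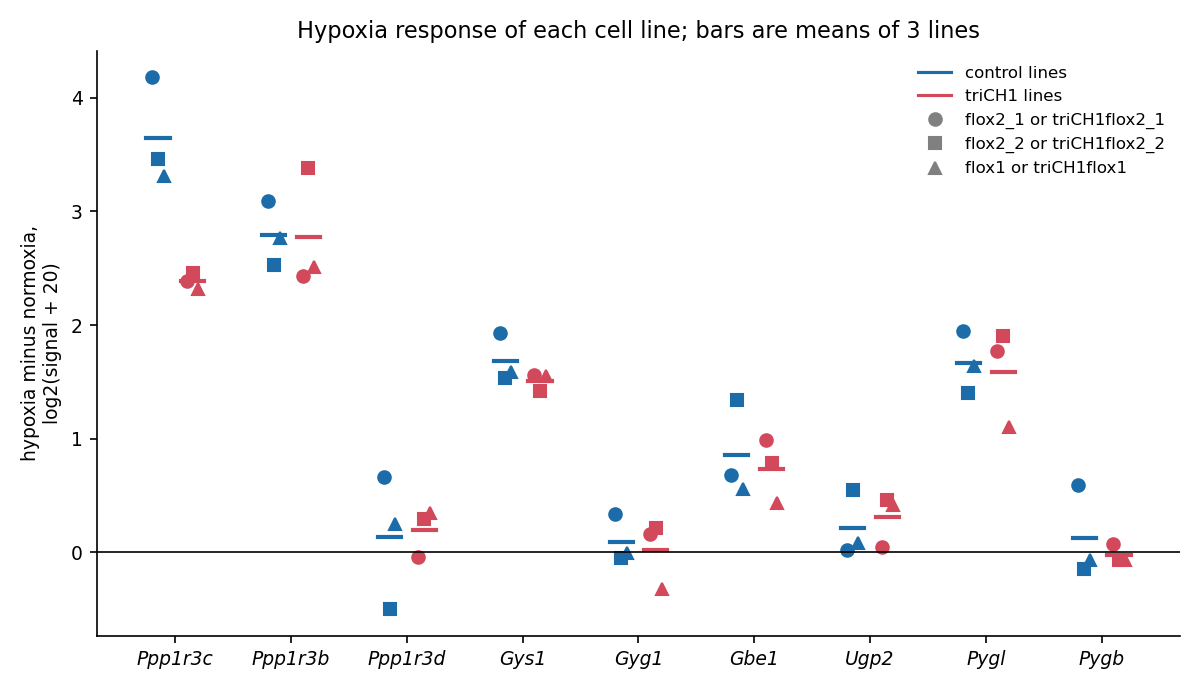
Hypoxia minus normoxia on the log2(signal + 20) scale in each of the 6 lines for the leading probe sets, with bars at the means of 3 lines. The Ppp1r3c responses of control lines (3.31 to 4.18) lie above those of triCH1 lines (2.32 to 2.46) on this scale but overlap with 1 added in place of 20 (4.01 to 5.53 and 3.01 to 4.67), and for the other 8 genes the line types overlap.

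The comparison of control with triCH1 lines asks how far these transcripts depended on the CH1 domains. The contrasts share arrays: the normoxia and hypoxia differences use the same lines as the responses, and the difference of the responses uses all 12 arrays. Limma called 0 members in the difference of the responses (0% of all tested probe sets called, 0.693% with an unadjusted p under 0.05), 0 in normoxia (0.00529% called lower and 0% higher) and 0 in hypoxia (0.0688% called lower and 0.00529% higher). The difference was above 0 for 2 of 9 leading probe sets in the response, 3 of 9 in normoxia and 3 of 9 in hypoxia, against 51.6%, 52.6% and 55.5% of all tested. The 95% interval left out 0 for Ppp1r3c and Ppp1r3b alone among the leading probe sets.

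In hypoxia Ppp1r3c was lower in triCH1 than in control lines, with a ratio of the mean signals of 0.352 and a log2 difference of -1.45 ± 0.39 (95% interval -2.28 to -0.61) that did not pass (limma, adjusted p = 0.301). In normoxia its difference was -0.18 ± 0.39 (adjusted p = 0.992), at signals near the bottom of the scale. The difference of the Ppp1r3c responses, triCH1 minus control, was -1.26 ± 0.55 (interval -2.44 to -0.08), which did not pass after adjustment either (adjusted p = 1). Its unadjusted p was under 0.05, as for 0.36% of tested probe sets in that direction. Over the omissions of an array or a line this difference lay between -1.55 and -0.98.

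Ppp1r3b was lower in triCH1 lines by similar amounts in both conditions. The ratios of the mean signals were 0.586 in normoxia and 0.602 in hypoxia, and the log2 differences -0.69 ± 0.27 (interval -1.27 to -0.11) and -0.71 ± 0.27 (interval -1.29 to -0.13). Neither passed after adjustment (adjusted p = 0.571 and 0.519). Over the omissions the Ppp1r3b difference lay between -0.93 and -0.36 in normoxia and between -0.82 and -0.62 in hypoxia. The difference between its responses was -0.02 ± 0.38, with an interval of -0.84 to 0.79 that allows differences of nearly 1 log2 unit either way.

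Groups that did not overlap, with triCH1 lower, were seen for 4.64% of tested probe sets in normoxia and 6.05% in hypoxia. Of the leading probe sets Ppp1r3b showed this in both conditions and Ppp1r3c in hypoxia, as did the second probe set of Gyg1 in hypoxia with a difference of -0.06 ± 0.15. Gys1 had -0.31 ± 0.21 and Pygb -0.33 ± 0.26 in hypoxia, with overlapping groups (adjusted p = 0.734 and 0.767). Pygl, Gbe1 and Ugp2 had 0.04, 0.01 and 0.10. For the response, the interval of the difference was -0.80 to 0.46 for Gys1, -1.07 to 0.93 for Pygl, -1.09 to 0.83 for Gbe1, -0.45 to 0.64 for Ugp2, -0.52 to 0.36 for Gyg1, -0.84 to 0.96 for Ppp1r3d and -0.93 to 0.64 for Pygb. These intervals do not show that the line types responded alike. The median of the 9 genes was -0.08 for the difference of responses, -0.14 in normoxia and -0.28 in hypoxia, where that of all tested probe sets was 0.01, 0.02 and 0.03.

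**Figure D4:**
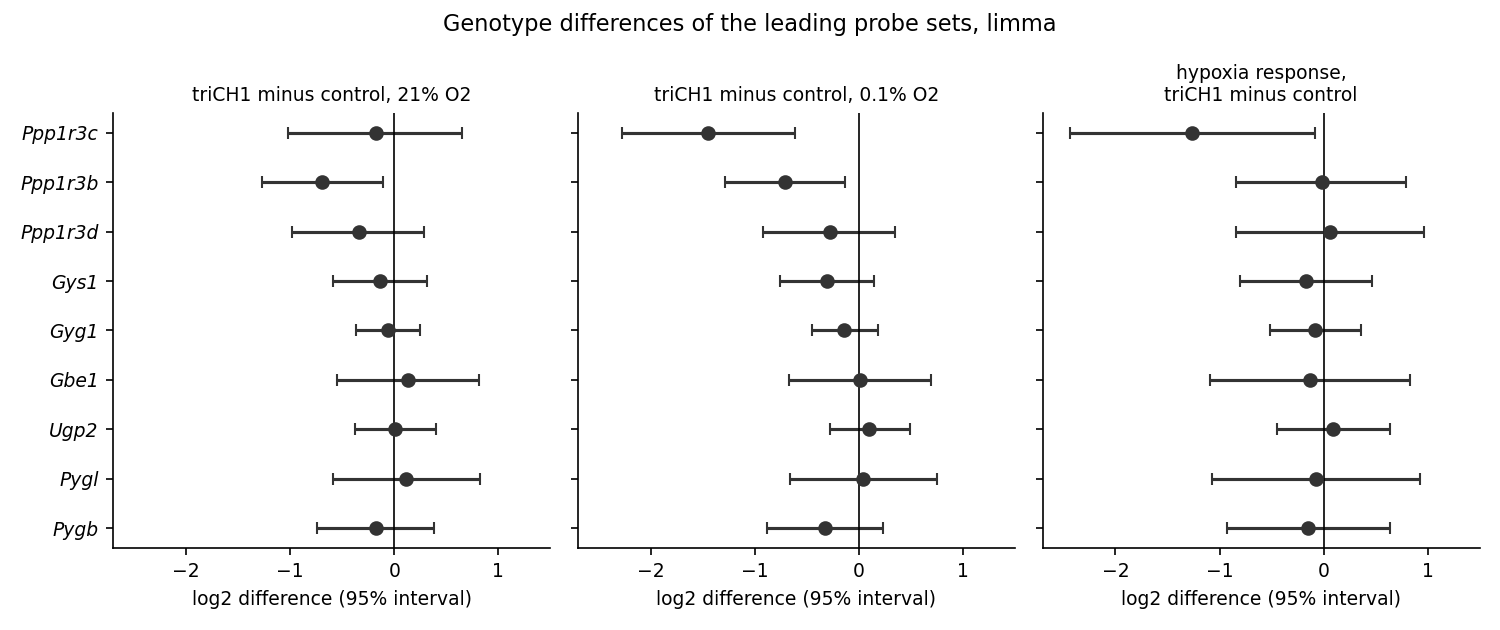
Log2 difference between triCH1 and control lines with its 95% interval from limma for the 9 leading probe sets, at 21% O2, at 0.1% O2 and for the hypoxia response. Ppp1r3c at 0.1% O2 (-1.45) and in its response (-1.26) and Ppp1r3b at 21% (-0.69) and 0.1% O2 (-0.71) have intervals that leave out 0, and no difference passed after adjustment.

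Other genes of the pathway were counted in a list of 29, which held further synthase, phosphorylase and phosphorylase kinase genes, the catalytic subunits of protein phosphatase 1, the glycogen synthase kinases, phosphoglucomutases and the genes of lysosomal glycogen and glucose 6-phosphate. Of these 28 had a probe set and 19 were tested. In each line type 1 of 19 rose and 0 fell, where 0.799% and 0.63% of all tested probe sets were called higher in control and triCH1 lines, and in the difference of responses, in normoxia and in hypoxia 0 passed between line types. The gene that rose was Pgm1 (1451149_at), annotated by that symbol, whose product converts glucose 6-phosphate and glucose 1-phosphate into each other. Its signal averaged 974.8 ± 84.7 in control normoxia, 3354.9 ± 146.8 in control hypoxia, 1179.5 ± 96.5 in triCH1 normoxia and 3072.5 ± 226.4 in triCH1 hypoxia. The lowest hypoxia array of Pgm1 (2811.3) lay above the highest normoxia array (1257.9), and it rose by 1.77 ± 0.14 and 1.37 ± 0.14 (adjusted p = 6.11e-06 and 0.000106). The median response of the 19 was 0.15 in control and 0.03 in triCH1 lines. With each line as a block 3 of the 19 rose over all 6 lines, against 2.41% of all tested probe sets. Beside Pgm1 these were Stbd1 (1434442_at), a glycogen-binding protein gene, and Slc37a4 (1417042_at), the glucose 6-phosphate transporter gene (adjusted p = 0.0156 and 0.0458). Without the block Stbd1 had 0.56 ± 0.16 and Slc37a4 0.61 ± 0.18 (adjusted p = 0.13 and 0.152).

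The liver synthase gene Gys2 and the muscle phosphorylase gene Pygm had mean signals of 16.1 and 14.2 over the 12 arrays, and the muscle targeting subunit gene Ppp1r3a had 22.8. These were too low to be tested, so that a change in them was not measurable here. The glucose 6-phosphatase gene G6pc, with a mean of 14.1, was low as well.

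The genes whose pattern over the 12 arrays was most like that of the targeting subunits were found among 10058 other genes, by the root mean square difference of log2(signal + 20) after each probe set was centred on its own mean. For Ppp1r3c these were Ndrg1 and Stc2 at 0.38, Hilpda at 0.54, Pfkfb3 at 0.56 and Ppp1r3b at 0.58, where the median over all genes was 1.68. For Ppp1r3b they were Ndrg1 at 0.36, Pfkfb3 at 0.37, Ccng2 and Hilpda at 0.38 and Ak4 at 0.45, with a median of 1.51. Of the 5 genes nearest to each, Ndrg1, Hilpda and Pfkfb3 were shared. In hypoxia their log2 differences, triCH1 minus control, were -1.03, -0.98 and -1.15. Those of Stc2, Ccng2 and Ak4 were -0.8, -0.73 and -0.12. A lower signal in triCH1 hypoxia was thus not particular to the targeting subunits. These genes were picked by likeness over the same arrays, so their values are a description.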

How the data were processed

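The authors deposited 1 table of probe set signals for 12 Mouse430_2 arrays, as intensity on a linear scale. Per the labels it was made with Affymetrix's Statistical algorithm, scaled to a target of 500, and the 2% trimmed mean of each array was checked to be 500. No further normalization is named, and detection calls were not used. The labels gave line and treatment. Of 45101 probe sets 64 controls were left out, and 18903 with a mean signal of at least 100 were tested as log2(signal + 20) by limma 3.58.1 in R 4.3.3 (eBayes, trended variance), with 1 mean per group, 8 residual degrees of freedom and 6 contrasts. Tests were two-sided, adjusted by Benjamini-Hochberg within a contrast over all tested probe sets, and called at an adjusted p under 0.05. Errors of changes are standard errors, and errors of signals are standard deviations. The script was tested on simulated data.

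Arrays were compared pairwise (Pearson's r of log2 signals 0.936 to 0.962, 0 identical pairs). Normoxia and hypoxia arrays of a line pair by the line's name, and the correlation of their deviations from the group means was 0.28, -0.02 and 0.47 in flox2_1, flox2_2 and flox1 and 0.58, 0.35 and 0.54 in triCH1flox2_1, triCH1flox2_2 and triCH1flox1. Array lot was the same for all arrays. The members, the pathway and marker lists and the tests were chosen with earlier results of these data known. All members were named, with their brightest probe set leading, and of the pathway list those called in any contrast, and the 5 genes nearest to Ppp1r3c and to Ppp1r3b. Symbols came from the array's annotation table, in which 34945 probe sets had 1 symbol, 932 several and 9160 none listed, updated through RefSeq. Promoters and positions came from RefSeq tables (GRCm38.p6), matched by symbol. Alternatives were other pseudocounts, filters, normalizations and fits, lines as blocks, a covariate for the floxed gene, the floxed Ep300 lines alone, 1 value per gene, and leaving out every array or line in turn.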

Additional observations from a re-analysis of the deposited data

How the results depend on the processing

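Each result was recomputed under up to 13 other settings and 18 omissions of an array or a line. The count of members called was 3 to 4 in control lines and 3 to 5 over all lines under the other settings. With the line as a replicate block, which uses the pairing of arrays by line, the counts were 4, 4 and 5 in control lines, triCH1 lines and over all lines, the 5th being Gbe1, and no other call of a member changed. In triCH1 lines the count of 4 became 2 when only the arrays of the contrast were fitted, with fewer arrays for the spread. It was 2 to 4 over the omissions, with 2 without the hypoxia array of triCH1flox2_1 and without line triCH1flox2_2. The omissions gave 3 to 4 in control lines and 4 to 5 over all lines. Counts of 0 between line types were 0 under every setting and omission. In triCH1 lines Pygl lost its call under 7 settings (adjusted p 0.0526 to 0.126), and Ppp1r3c when only the arrays of the contrast were fitted (0.121). In control lines Pygl lost it with lines with floxed Ep300 alone (0.0873). The following uncalled differences between line types changed sign, and the cause was not tested. For the response they were Ppp1r3b with a pseudocount of 1 (0.16), Ppp1r3d with quantile normalization (-0.01) and Ugp2 with 1 value per gene (-0.06). With floxed Ep300 lines alone the response gave 0.10 for Ppp1r3b, 0.04 for Gyg1, -0.03 for Ugp2 and 0.16 for Pygl. In normoxia those lines gave 0.24 for Ppp1r3c, -0.21 for Gbe1 and -0.08 for Pygl, and Ugp2 had -0.01 after centring on the median. In hypoxia Gbe1 had -0.01 with a pseudocount of 100, -0.04 with quantile normalization, -0.03 after centring and -0.34 with floxed Ep300 lines alone, and Pygl -0.01 with quantile normalization. Over the omissions, further uncalled values changed sign. For the response of control lines their ranges were -0.12 to 0.45 for Ppp1r3d, -0.03 to 0.17 for Gyg1 and -0.11 to 0.26 for Pygb. In triCH1 lines they were -0.09 to 0.19 for Gyg1 and -0.27 to 0.18 for Pygb, and over all lines -0.01 to 0.14 for Gyg1 and -0.07 to 0.15 for Pygb. For the difference of responses they were -0.36 to 0.21 for Ppp1r3b, -0.26 to 0.32 for Ppp1r3d, -0.33 to 0.01 for Gys1, -0.19 to 0.09 for Gyg1, -0.48 to 0.14 for Gbe1, -0.05 to 0.26 for Ugp2, -0.39 to 0.27 for Pygl and -0.40 to 0.09 for Pygb. In normoxia they were -0.47 to 0.06 for Ppp1r3c, -0.32 to 0.02 for Gys1, -0.17 to 0.05 for Gyg1, -0.07 to 0.31 for Gbe1, -0.13 to 0.16 for Ugp2, -0.22 to 0.43 for Pygl and -0.40 to 0.07 for Pygb. In hypoxia they were -0.34 to 0.27 for Gbe1, -0.02 to 0.23 for Ugp2 and -0.11 to 0.21 for Pygl. A filter at 200 left out Ppp1r3c, Ppp1r3d and Gbe1, so they have no value there. Groups of 3 arrays limit the precision of every value, and low signals such as those of Ppp1r3c in normoxia have little order among themselves.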

Other observations

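A further targeting subunit gene, Ppp1r3g (1428923_at), was chosen after its values were seen. With a mean signal of 64.8 it was not tested. It gave 43.2, 33.9 and 6.1 in flox2_1, flox2_2 and flox1 in normoxia and 130.8, 145.3 and 104.1 in hypoxia. In triCH1flox2_1, triCH1flox2_2 and triCH1flox1 it gave 31.9, 3.1 and 4.3 in normoxia and 68.6, 70.5 and 135.2 in hypoxia. Every hypoxia array of Ppp1r3g lay above every normoxia array, as for 1.43% of the tested probe sets. That share was not computed for probe sets with a mean signal under 100. The second probe set of Pgm1, 1437240_at, averaged 10.8 ± 2.11 and 49.6 ± 23.3 in control and 26.1 ± 32 and 86 ± 21.1 in triCH1 lines, in normoxia and hypoxia.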
